A study of Mus musculus with 6 samples.

Results

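Aminoacyl-tRNA synthetases attach each amino acid to its transfer RNA, the step that fixes the meaning of the genetic code before a ribosome reads it. Animal cells hold separate sets of these enzymes for the cytosol and for mitochondria, and in both cases the genes are in the nucleus. When amino acids run short, uncharged tRNA activates the kinase GCN2 (Eif2ak4), phosphorylated eIF2alpha then favours translation of the transcription factor ATF4, and many cytosolic synthetase genes are known ATF4 targets in mouse and human cells.

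The genes described here were chosen by name. They are the genes of the count table whose mouse symbol is 1 amino acid letter followed by ars, with or without a 1 or 2, together with Eprs, Farsa, Farsb and Tarsl2. This rule gave 38 of the 56941 genes in the table, of which 19 encode cytosolic enzymes, 17 mitochondrial enzymes, and 2 (Gars and Kars) enzymes that serve both compartments. All 38 passed the filter on low counts, with between 25 and 7975 counts per gene and library.

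RNA was sequenced from cells isolated with magnetic beads as primary endothelial cells of mouse lung and kept in endothelial medium with serum. There were 3 libraries with an endothelial knockout of Fundc1, a mitophagy receptor of the outer mitochondrial membrane (EC-KO), and 3 libraries with the floxed gene (FL). No label names the Cre driver, the age or sex of the mice, or whether each library came from its own animal, so p-values measure the spread between these libraries, which may be technical. Levels are CPM, counts relative to library size with TMM scaling, and each log2 fold change sets EC-KO over FL, from edgeR's quasi-likelihood test, called at an adjusted p below 0.05 over all genes tested.

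Fundc1 was at 14.1, 18.2 and 12.8 CPM in EC-KO 1, 2 and 3, against 25.1, 32.0 and 30.7 CPM in FL 1, 2 and 3 (a log2 fold change of -0.96 with an SE of 0.19, edgeR adjusted p = 0.00796). Libraries held 29723104 to 33474398 counts in EC-KO and 26658998 to 34306962 counts in FL. EC-KO 2 stood apart from EC-KO 1 and 3 on the second principal component (-67.4, against 18.4 and 41.6). The isolates also differed in markers of cell types. Of 20 pan-endothelial markers 12 were lower and 0 higher, with a summed level of 4382 to 8782 CPM in EC-KO, highest in EC-KO 2, and 11274 to 15652 CPM in FL. Of 18 epithelial markers 17 were higher and 0 lower (12031 to 17830 CPM in EC-KO, 2025 to 4644 CPM in FL), and of 15 macrophage markers 14 were lower and 0 higher (2090 to 2880 CPM in EC-KO, 3614 to 5504 CPM in FL). Lyz2, which was not called, made up most of the macrophage sums (mean 2028 CPM in EC-KO, 3170 CPM in FL), and Sftpc and Scgb1a1 most of the epithelial sums. The median log2 fold change was -1.08 over the endothelial, 2.38 over the epithelial and -2.30 over the macrophage markers. No marker of these 3 lists was at 0 in any library. Of 10 smooth muscle and pericyte markers 8 were lower and 0 higher, and of 10 erythroid and platelet markers 7 were higher and 0 lower. Of 15 fibroblast markers 8 were higher and 3 lower, and of 13 lymphocyte markers 2 were higher and 2 lower. Of all 18562 genes tested 13.5% were called higher and 13.5% lower. In bulk RNA fewer cells of a type and less RNA per cell cannot be told apart, and the part of this change of cell types in the results below was not tested.

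Promoter sequence is shown first, for the letters TGATGNAA, the core of the element through which ATF4 acts. This motif was chosen with earlier results of these data known, so its matches are only described. Of the 4 cytosolic genes that rose most, 3 (Aars, Yars and Tars) carry it near their start, and Cars had no window. RefSeq promoter windows on GRCm38.p6, from 250 bases before to 50 after the start, matched 28 of the 38 genes. Genes without a window included Cars, Nars, Rars, Hars, Wars, Vars, Lars, Hars2 and Pars2. TGATGNAA, searched on both strands, was present for 5 of the 28 genes, against 4.51% of 27025 genes with a window. The 5 were Aars, Yars, Tars, Iars and Gars. By compartment they were 4 of 12 cytosolic genes, 1 of 2 dual genes and 0 of 14 mitochondrial genes with a window. The first 250 bases upstream of Aars (chr8:111033592-111033841, plus strand) hold a match on the minus strand at position -112 and, at -146, the letters CACGTG, the E-box bound by MYC and related factors. Both are in capitals.
Aars, 250 bases before the start: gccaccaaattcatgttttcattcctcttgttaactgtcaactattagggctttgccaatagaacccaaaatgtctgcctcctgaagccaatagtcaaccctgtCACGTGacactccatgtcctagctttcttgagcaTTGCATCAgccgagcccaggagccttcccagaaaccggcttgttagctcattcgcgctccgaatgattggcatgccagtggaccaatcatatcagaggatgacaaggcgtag

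The other matches lay within 30 bases of the start, and are shown with 11 bases on each side, 5′ to 3′ on the gene's strand, with the match in capitals. They are at chr8:111033840-111033869 for Aars, chr4:129189895-129189924 for Yars, chr15:11399655-11399684 (minus strand) for Tars, chr13:49682126-49682155 for Iars and chr6:55037960-55037989 for Gars, all on the plus strand but for Tars.
Aars, second match: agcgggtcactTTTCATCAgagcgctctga
Yars: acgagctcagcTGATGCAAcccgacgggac
Tars: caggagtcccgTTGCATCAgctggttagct
Iars: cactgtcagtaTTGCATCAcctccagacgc
Gars: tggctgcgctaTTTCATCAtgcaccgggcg
Aars, Yars and Tars rose in EC-KO. Iars and Gars were not called, and Sars, the remaining riser with a window, had no match. The 4 genes that fell and had a window (Dars, Cars2, Iars2 and Rars2) had none either. CACGTG was found for 5 of the 28 genes (Aars, Tars, Iars, Farsb and Ears2), against 8.09% of genes with a window. A match describes these letters and says nothing of binding in these cells.

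Calls went mostly up among cytosolic and down among mitochondrial enzymes; the difference between the compartments was not tested over genes. Among the 19 cytosolic genes 7 rose (36.8%) and 2 fell (10.5%), and among the 17 mitochondrial genes 0 rose and 4 fell (23.5%). Of 18562 genes tested, 13.5% were called higher and 13.5% lower, so that the cytosolic share of rises was above that background and the cytosolic share of falls near it. The median log2 fold change was 0.28 over the cytosolic and -0.23 over the mitochondrial genes, beside 0.03 over all genes tested. EC-KO and FL did not overlap for 21 of the 38 genes (10 above FL and 11 below), against 45.4% of all genes (22.6% above and 22.8% below). Among cytosolic genes 8 lay above and 4 below, and among mitochondrial genes 1 above and 7 below. Over all 38 genes 13 were called (34.2%, against 27.1% of all genes), and the median was -0.03.

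**Figure D1:**
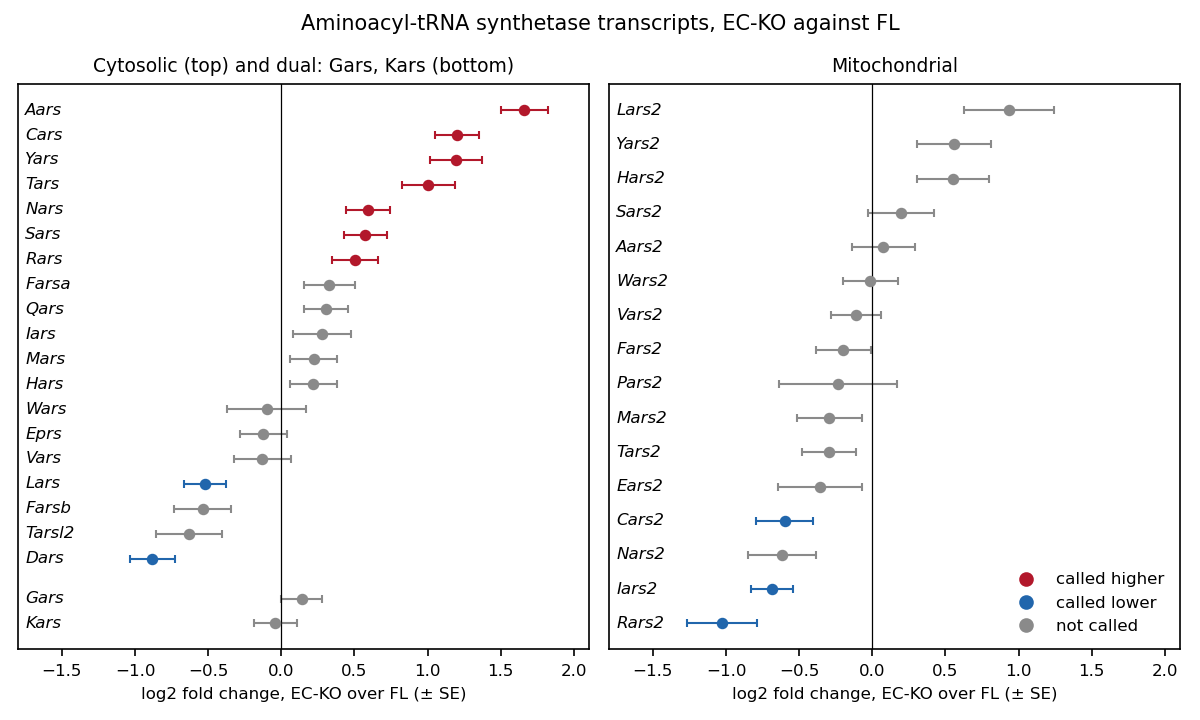
Log2 fold change of EC-KO over FL for the synthetase genes (points) with its standard error (bar), cytosolic and dual genes on the left and mitochondrial genes on the right, coloured by call. All 7 genes called higher are cytosolic, from Rars at 0.50 to Aars at 1.66, and the lowest value is that of mitochondrial Rars2 at -1.03.

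Aars, the alanine enzyme, rose most of all the synthetases. It was at 230, 182 and 223 CPM in EC-KO 1, 2 and 3, against 68.1, 65.6 and 67.4 CPM in FL 1, 2 and 3, a log2 fold change of 1.66 ± 0.16 SE or 3.16 times (adjusted p = 0.000451 in edgeR). The lowest EC-KO library lay far above the highest FL library, and the FL libraries were nearly equal. Aars lies on chromosome 8, 111759776 to 111784296 on the plus strand, as the deposited table places it, on a build that could not be settled. Of its exon bases 15.1% are shared with Exosc6 and an unnamed gene, and alignments ambiguous between genes were left uncounted.

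Cars, the cysteine enzyme, was at 78.1, 74.3 and 76.1 CPM in EC-KO 1, 2 and 3, against 36.8, 30.9 and 31.6 CPM in FL 1, 2 and 3. The log2 fold change was 1.2 ± 0.15 SE (adjusted p = 0.00107 in edgeR), with 2.24 to 2.36 times the FL mean in each EC-KO library. Yars, the tyrosine enzyme, of which secreted fragments with cytokine activity are known in human cells, was at 82.5, 55.8 and 75.4 CPM in EC-KO 1, 2 and 3, against 30.2, 31.2 and 32.0 CPM in FL 1, 2 and 3 (1.19 ± 0.18 SE, adjusted p = 0.00231 in edgeR). Tars, the threonine enzyme, which in human cells can be secreted and acts on vessel growth, was at 102, 72.4 and 109 CPM in EC-KO 1, 2 and 3, against 47.1, 45.9 and 48.3 CPM in FL 1, 2 and 3 (1.00 ± 0.18 SE, adjusted p = 0.00524 in edgeR). EC-KO and FL did not overlap for any of these 3 genes, and EC-KO 2 was the lowest EC-KO library for each.

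The remaining rises were smaller. Nars, the asparagine enzyme, was at 199, 179 and 195 CPM in EC-KO 1, 2 and 3, against 133, 130 and 117 CPM in FL 1, 2 and 3 (0.59 ± 0.15 SE, adjusted p = 0.0185 in edgeR). Sars, the serine enzyme, known from zebrafish to be needed for orderly vessel growth, was at 123, 105 and 112 CPM in EC-KO 1, 2 and 3, against 72.7, 79.5 and 76 CPM in FL 1, 2 and 3 (0.57 ± 0.15 SE, adjusted p = 0.0195 in edgeR). Rars, the arginine enzyme of the multi-synthetase complex, was at 69.3, 52.9 and 61.0 CPM in EC-KO 1, 2 and 3, against 44.7, 41.2 and 43.4 CPM in FL 1, 2 and 3 (0.50 ± 0.16 SE, adjusted p = 0.0424 in edgeR). Groups were separate for all 3, and EC-KO 2 was again the lowest EC-KO library.

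Leaving out single libraries split the 7 rises, of which 4 were left without EC-KO 1, EC-KO 3, FL 2 or FL 3 and 5 without FL 1. Aars, Cars, Yars and Tars were called in each of the 15 alternatives tried, the highest adjusted p being 0.00409 for Aars, 0.00946 for Cars, 0.0153 for Yars and 0.0305 for Tars. Nars was lost without EC-KO 1 (adjusted p = 0.0676), EC-KO 3 (0.0623), FL 2 (0.0742) or FL 3 (0.108). Sars was lost without EC-KO 1 (0.0785), EC-KO 3 (0.0560), FL 1 (0.0715), FL 2 (0.0709) or FL 3 (0.0912), and Rars without EC-KO 1 (0.154), EC-KO 3 (0.105), FL 1 (0.0960), FL 2 (0.154) or FL 3 (0.144), and Rars also with no filter on low counts (0.0907). Without EC-KO 2 the cytosolic genes called higher numbered 9, with Farsa (0.43, adjusted p = 0.0348) and Qars (0.37, adjusted p = 0.0453) in addition.

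**Figure D2:**
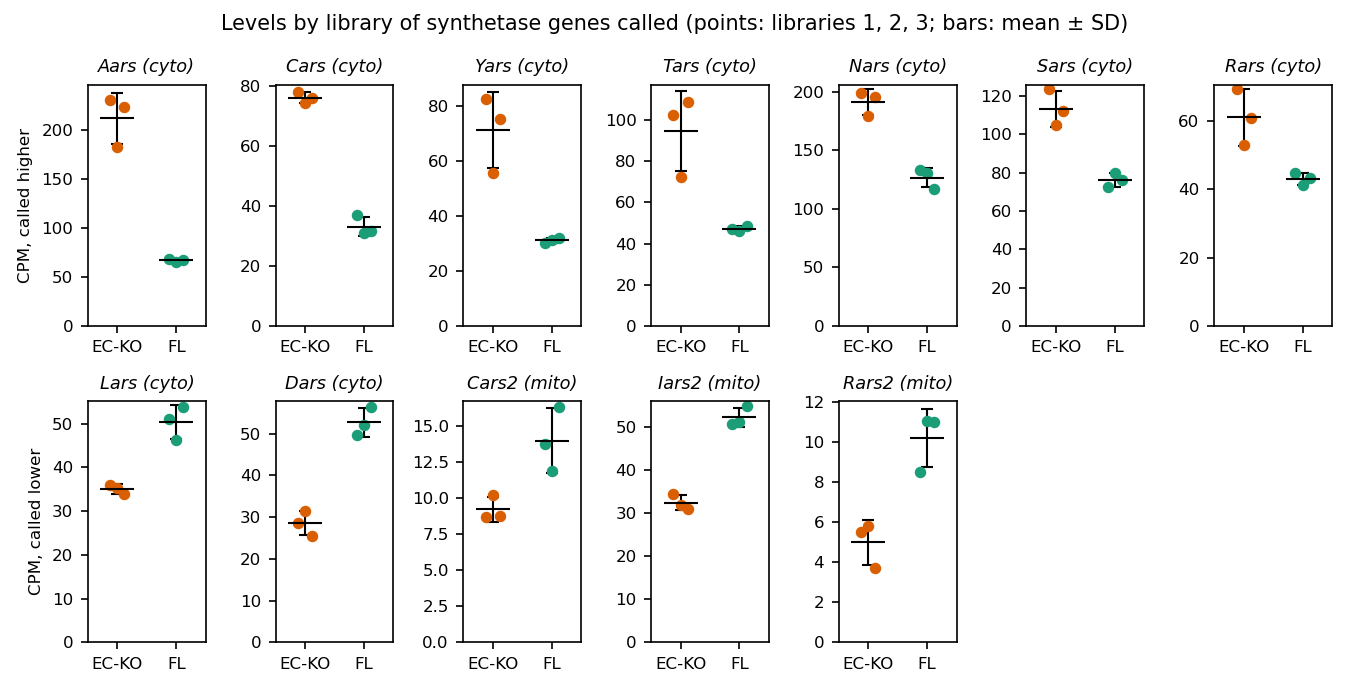
CPM of 12 synthetase genes called, per library (points) with the mean and SD of each group (bars), EC-KO left of FL, with genes called higher in the upper row and lower in the lower row. EC-KO and FL do not overlap for any of the 12 genes, the largest separation being that of Aars (182 to 230 CPM in EC-KO, 65.6 to 68.1 CPM in FL). The genes were called from these same values, so their separation is no further evidence. Of all genes tested 45.4% had groups that did not overlap.

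Falls among the cytosolic enzymes were those of Dars and Lars, both of the multi-synthetase complex. Dars, the aspartate enzyme, was at 28.7, 31.4 and 25.6 CPM in EC-KO 1, 2 and 3, against 49.6, 52.1 and 56.2 CPM in FL 1, 2 and 3, and fell by 0.88 on the log2 scale (SE 0.15, adjusted p = 0.00450 in edgeR). It kept its call in all 15 alternatives (highest adjusted p 0.0236). Lars, the leucine enzyme, which also serves as a leucine sensor for mTORC1 in human cells, was at 36.0, 35.3 and 33.9 CPM in EC-KO 1, 2 and 3, against 51.0, 46.4 and 53.8 CPM in FL 1, 2 and 3 (-0.52 ± 0.15 SE, adjusted p = 0.0281 in edgeR). Its call was lost when any library but EC-KO 2 was left out, with adjusted p-values of 0.0757 and 0.0802 without EC-KO 1 and 3 and 0.0586, 0.0662 and 0.0986 without FL 1, 2 and 3, and also with library size only (0.0626).

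Farsb and Tarsl2 were below FL in every EC-KO library but missed the threshold in edgeR. In DESeq2 both were called lower (adjusted p = 0.0445 for Farsb and 0.0341 for Tarsl2). Farsb, the beta subunit of the phenylalanine enzyme, was at 19.3, 25.2 and 16.6 CPM in EC-KO 1, 2 and 3, against 27.0, 29.3 and 32.4 CPM in FL 1, 2 and 3 (-0.54 ± 0.19 SE, adjusted p = 0.0677 in edgeR), and was called without EC-KO 2 (-0.75, adjusted p = 0.00675). Its partner, the alpha subunit Farsa, had the opposite sign (0.33 ± 0.18 SE, adjusted p = 0.192 in edgeR), with 40.7, 30.6 and 42.8 CPM in EC-KO 1, 2 and 3 and 31.3, 31.7 and 27.9 CPM in FL 1, 2 and 3. Whether the 2 subunits differ in response was not tested. Tarsl2, the second cytosolic threonine enzyme, was at 4.42, 3.26 and 3.71 CPM in EC-KO 1, 2 and 3, against 5.76, 6.20 and 5.69 CPM in FL 1, 2 and 3 (-0.63 ± 0.22 SE, adjusted p = 0.0633 in edgeR), beside the rise of Tars.

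The 6 other cytosolic genes that were not called had values between -0.13 and 0.31 on the log2 scale, namely Qars (0.31), Iars (0.28), Mars (0.22), Hars (0.22), Eprs (-0.12) and Vars (-0.13). Eprs is the fused glutamate and proline enzyme and Vars, the valine enzyme, binds the elongation factor eEF1. For Eprs the 95% interval of the log2 fold change ran from -0.49 to 0.24. Wars, the tryptophan enzyme that interferon gamma induces and of which a truncated form restrains vessel growth in human cells, split the EC-KO libraries. It was at 116, 225 and 114 CPM in EC-KO 1, 2 and 3, against 171, 139 and 178 CPM in FL 1, 2 and 3 (-0.10 ± 0.27 SE, adjusted p = 0.807 in edgeR). EC-KO 2 lay above all FL libraries and the other EC-KO libraries below them, and without EC-KO 2 Wars was called lower (-0.53, adjusted p = 0.0240).

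Gars and Kars, whose transcripts supply both compartments, were not called. Gars, the glycine enzyme, was at 86.7, 80.8 and 80.5 CPM in EC-KO 1, 2 and 3, against 72.8, 80.0 and 72.3 CPM in FL 1, 2 and 3 (log2 fold change 0.14, 95% interval -0.18 to 0.46, adjusted p = 0.488 in edgeR). Kars, the lysine enzyme, was at 97.3, 87.3 and 81.9 CPM in EC-KO 1, 2 and 3, against 86.5, 88.1 and 99.4 CPM in FL 1, 2 and 3 (-0.04, interval -0.38 to 0.30, adjusted p = 0.865 in edgeR). The intervals exclude a change of the size seen for Aars.

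Among mitochondrial enzymes Rars2 had the largest fall. Rars2, the arginine enzyme, was at 5.52, 5.80 and 3.71 CPM in EC-KO 1, 2 and 3, against 8.53, 11.1 and 11 CPM in FL 1, 2 and 3 (-1.03 ± 0.24 SE, adjusted p = 0.0144 in edgeR). Defects in the human gene cause brain disease of childhood onset. The groups were separate, and FL 1 was the lowest FL library. Rars2 was lost without FL 2 (0.0574) or FL 3 (0.0556). The mitochondrial falls numbered 2 without EC-KO 1 and 1 without FL 2 or FL 3.

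Iars2, the isoleucine enzyme, kept its call in every alternative, alone among the mitochondrial falls. It was at 34.4, 31.7 and 31.0 CPM in EC-KO 1, 2 and 3, against 50.5, 51.1 and 54.7 CPM in FL 1, 2 and 3 (-0.69 ± 0.14 SE, adjusted p = 0.00928 in edgeR), with a highest adjusted p of 0.0417 over 15 alternatives. Iars2 shares 24.2% of its exon bases with genes on the opposite strand, and no source used here gives the strand setting of the counting. Cars2, the cysteine enzyme, was at 8.66, 10.2 and 8.78 CPM in EC-KO 1, 2 and 3, against 13.7, 11.9 and 16.3 CPM in FL 1, 2 and 3 (-0.60 ± 0.20 SE, adjusted p = 0.0490 in edgeR). This call, at the threshold, was lost when any library but EC-KO 2 was left out, with adjusted p-values of 0.142 and 0.124 without EC-KO 1 and 3 and 0.0797, 0.0698 and 0.170 without FL 1, 2 and 3. It was also lost with library size only (0.0711), upper-quartile scaling (0.0731), no filter on low counts (0.0639) and limma-voom (0.0510). Nars2, the asparagine enzyme, was below FL in every EC-KO library (3.31 to 4.39 CPM in EC-KO, 4.89 to 6.42 CPM in FL) and was not called (-0.62, adjusted p = 0.0796 in edgeR).

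Lars2, the leucine enzyme, had the highest log2 fold change of the mitochondrial set, opposite in sign to its cytosolic counterpart. It was at 84.6, 150 and 67.4 CPM in EC-KO 1, 2 and 3, against 37.8, 59.9 and 60.2 CPM in FL 1, 2 and 3 (0.93 ± 0.31 SE, adjusted p = 0.0506 in edgeR). All EC-KO libraries lay above FL, but the difference missed the threshold by little and EC-KO 2 stood far above the rest. It was called without EC-KO 3 (1.14, adjusted p = 0.0299), and without EC-KO 2 the value was 0.50.

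Hars2 and Yars2 also had positive values without a call. Hars2, the histidine enzyme, was at 40.8, 20.8 and 37.9 CPM in EC-KO 1, 2 and 3, against 21.7, 21.5 and 24.5 CPM in FL 1, 2 and 3 (0.55 ± 0.25 SE, adjusted p = 0.127 in edgeR), and was called without EC-KO 2 (0.77, adjusted p = 0.00354). Hars and Hars2 run in opposite directions from neighbouring starts and share 195 exon bases. Yars2, the tyrosine enzyme, was at 8.49, 5.93 and 7.08 CPM in EC-KO 1, 2 and 3, against 3.79, 6.08 and 4.69 CPM in FL 1, 2 and 3 (0.56 ± 0.25 SE, adjusted p = 0.130 in edgeR). The other mitochondrial genes that were not called (Sars2, Aars2, Wars2, Vars2, Fars2, Pars2, Mars2, Tars2 and Ears2) had log2 fold changes between -0.36 for Ears2 and 0.20 for Sars2. Pars2, the proline enzyme, had the lowest level of all, 0.941 to 1.33 CPM in EC-KO and 0.764 to 1.74 CPM in FL, and its interval was wide (-1.14 to 0.68).

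**Figure D3:**
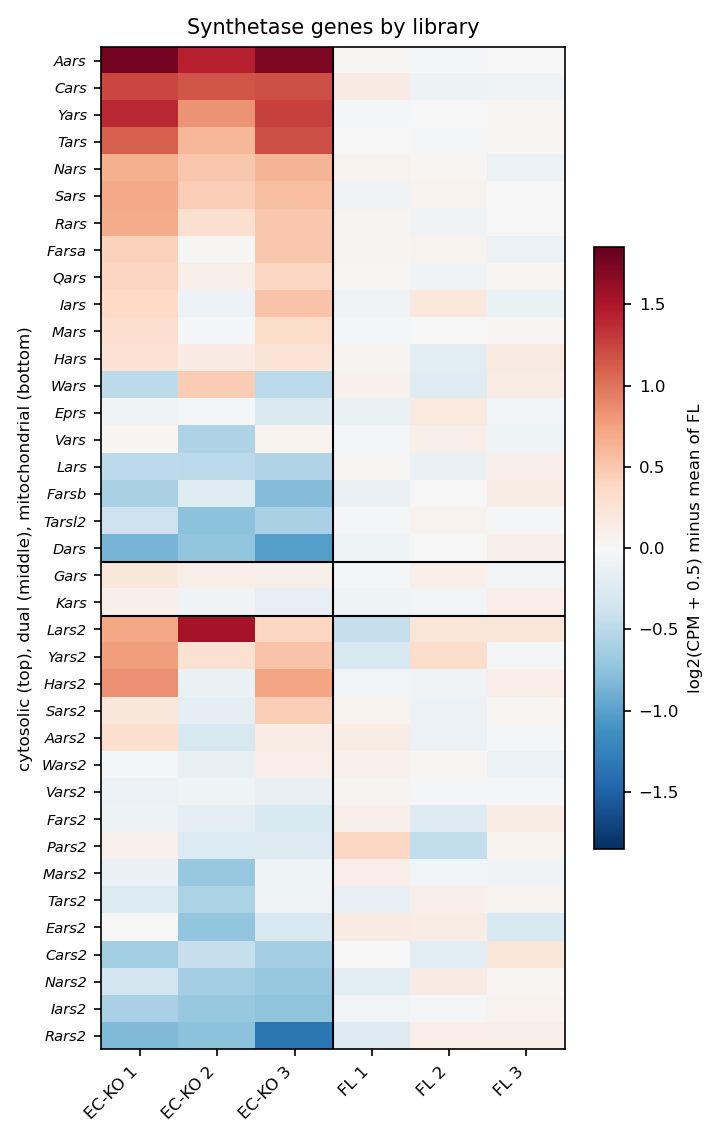
Log2(CPM + 0.5) of synthetase genes (rows) in each library (columns) minus its mean over FL, with EC-KO libraries left of FL libraries and cytosolic, dual and mitochondrial genes from top to bottom. The 7 cytosolic genes that rose are higher in each EC-KO library, whereas the values of Wars, Lars2 and Hars2 differ between EC-KO 2 and the other EC-KO libraries.

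Per kilobase of exon, most cytosolic transcripts were more abundant than mitochondrial ones in both groups. The median over genes was 12 CPM per kilobase in EC-KO and 9.51 in FL for the cytosolic enzymes, and 1.83 in EC-KO and 2.02 in FL for the mitochondrial ones. Levels above 5 CPM per kilobase were reached by 18 of 19 cytosolic genes in either group, all but Tarsl2, and by 2 of 17 mitochondrial genes, which were Lars2 and Hars2 in EC-KO and Iars2 and Hars2 in FL. Aars went up the order of all 38 genes, being 4th in EC-KO (22.8 CPM per kilobase) and 17th in FL (7.22). Wars (44.0 in EC-KO, 47.2 in FL) and Nars (43.9 in EC-KO, 29.1 in FL) led the order in both groups. These lengths are merged exons of all annotated transcripts and may exceed the transcripts made.

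Summed over genes, cytosolic synthetase transcripts took 1632, 1498 and 1578 CPM in EC-KO 1, 2 and 3, against 1206, 1212 and 1215 CPM in FL 1, 2 and 3. The groups were separate. The mitochondrial sum was 282, 306 and 256 CPM in EC-KO 1, 2 and 3, against 246, 271 and 283 CPM in FL 1, 2 and 3, with overlap, and Lars2 alone made up 150 CPM of the sum in EC-KO 2.

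The compartments can also be compared amino acid by amino acid within a library, where a ratio of counts does not depend on library scaling. For 15 amino acids 1 cytosolic and 1 mitochondrial gene could be paired, Eprs serving for both glutamate and proline. The log2 ratio of cytosolic to mitochondrial counts was higher in every EC-KO than in every FL library for 7 amino acids (cysteine, alanine, arginine, asparagine, isoleucine, tyrosine and methionine), lower for leucine, and overlapped for 7. With 3 libraries against 3 the two-sided exact permutation test cannot go below p = 0.1, which these 8 reached, and adjusted over 15 amino acids the smallest value was 0.188. None of the ratios can therefore pass the threshold in this design. Of all genes tested singly, 45.4% had groups that did not overlap, and no such share was computed for ratios of other gene pairs. The ratios reuse the counts of the genes described above and are no further evidence.

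Cysteine had the largest shift, with a mean log2 ratio of 3.05 ± 0.17 in EC-KO and 1.25 ± 0.26 in FL (SD, n = 3 each), a difference of 1.80. For arginine, the ratio was 3.62 ± 0.43 in EC-KO and 2.08 ± 0.27 in FL (SD, n = 3 each), a difference of 1.54. In these 2 pairs both genes were called, the cytosolic one higher and the mitochondrial one lower. For alanine (4.30 ± 0.15 in EC-KO, 2.7 ± 0.11 in FL, SD, n = 3 each) the shift was 1.60, with Aars2 at 0.07 ± 0.22 (log2 fold change ± SE). For asparagine the difference was 1.21 and for isoleucine 0.95. Leucine went the other way, at -1.44 ± 0.57 in EC-KO and -0.03 ± 0.42 in FL (SD, n = 3 each), a difference of -1.40. Without EC-KO 2 the ratios were separate for 11 amino acids, and without any other single library for 8 or 9. Separation is easier to reach with fewer libraries, so these counts cannot be set against the count over all libraries.

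**Figure D4:**
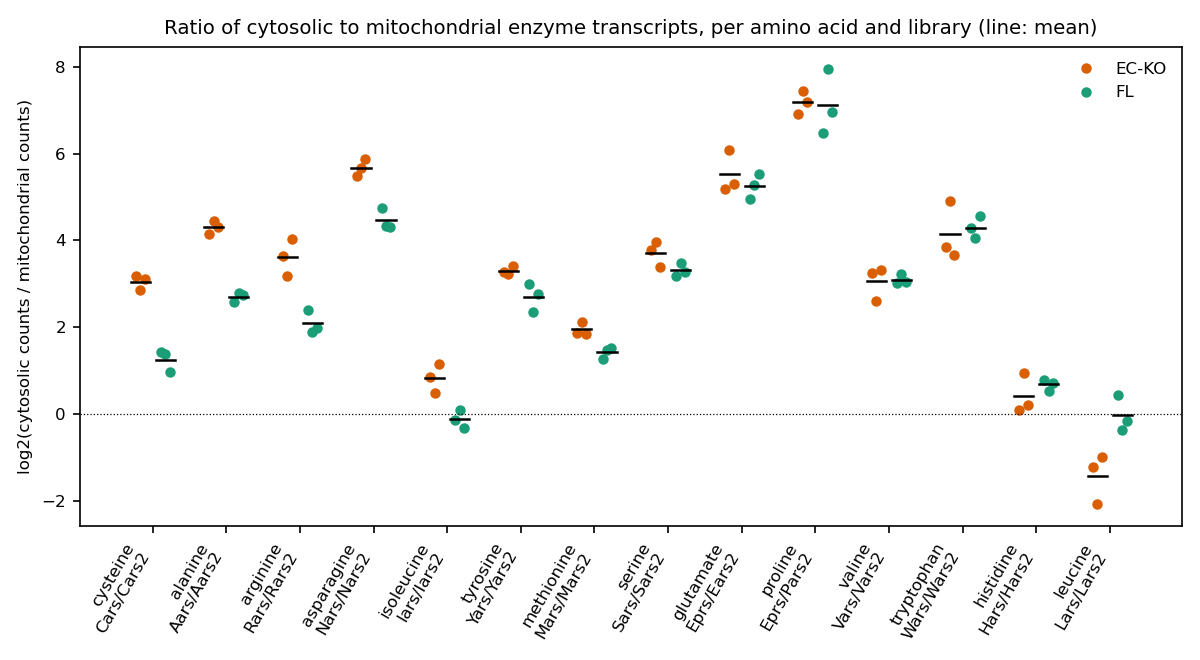
Log2 ratio of cytosolic to mitochondrial enzyme counts for 14 amino acids in each library (points) with group means (lines), EC-KO left of FL, ordered by the difference. The ratio is higher in every EC-KO library for 7 amino acids, by 0.53 for methionine to 1.80 for cysteine, and lower for leucine. Of all genes tested singly, 45.4% had groups that did not overlap, and ratios of other gene pairs were not computed.

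Synthetases fall into class I and class II by the fold of their catalytic domain. Among the cytosolic genes, 3 of 9 in class I rose and 1 fell (median 0.28), and 4 of 9 in class II rose and 1 fell (median 0.33), leaving aside Eprs, which holds a domain of each. Of the 8 enzymes of the multi-synthetase complex, an assembly of synthetases in the cytosol, 7 are cytosolic genes and 1 is the dual gene Kars. Over these 8, Kars included, 1 rose (Rars), 2 fell (Dars and Lars) and 5 were not called (median 0.09). The share of rises was 12.5% and of falls 25%, beside 13.5% of all genes in each direction. Outside the complex 6 of 12 cytosolic enzymes rose and 0 fell in edgeR (median 0.45). Of these 12, Farsb and Tarsl2 lay below FL in every EC-KO library and were called lower in DESeq2. Nars and Sars, among the 6 rises, lost their calls when some single libraries were left out. The 3 scaffold proteins of the complex were not called, with Aimp1 at 28.9 CPM in EC-KO and 25.4 CPM in FL (0.19, adjusted p = 0.398 in edgeR). Whether complex members and others differ was not tested.

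Partners of the synthetases were read against the 13.5% of all genes called lower and the 13.5% called higher. The genes that make mitochondrial glutaminyl-tRNA and formylate the initiator tRNA (Qrsl1, Gatb, Gatc and Mtfmt) gave 0 calls of 4, with a median of -0.11 and Gatc at -0.36 (adjusted p = 0.177 in edgeR). Of 9 genes of trans-editing and selenocysteine 2 fell, Pstk, the kinase that acts on seryl-tRNA of selenocysteine (-1.01, adjusted p = 0.0140 in edgeR), and Sephs2, which makes the selenium donor (-0.81, adjusted p = 0.0314 in edgeR). Of 8 genes of tRNA end processing 1 fell, Elac1 (-0.58, adjusted p = 0.0415 in edgeR). Pstk was lost without EC-KO 1 (0.0577) or FL 3 (0.0523), Sephs2 without EC-KO 1 (0.0819), EC-KO 3 (0.0770), FL 2 (0.0801) or FL 3 (0.109), and Elac1 without EC-KO 1 (0.127), EC-KO 3 (0.0911), FL 2 (0.0850) or FL 3 (0.153). Elac1 was also lost with library size only (0.0708), upper-quartile scaling (0.0639) and no filter on low counts (0.0558).

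Genes listed here as elongation factors had positive log2 fold changes for 5 of 5 cytosolic and negative ones for 3 of 4 mitochondrial members. Of the cytosolic factors 0 were called (median 0.30), and Eef1a1 was at 8001 ± 1127 CPM in EC-KO and 7325 ± 548 CPM in FL (SD, n = 3 each). Of the 4 mitochondrial factors 2 fell, Gfm2 and Gfm1, against 13.5% of all genes called lower. The 2 remaining mitochondrial factors were not called, and their EC-KO and FL libraries overlapped. Gfm2 was at 11.6 CPM in EC-KO and 20.3 CPM in FL (-0.80 ± 0.17 SE, adjusted p = 0.0106 in edgeR), and Gfm1 at 22.1 CPM in EC-KO and 34.6 CPM in FL (-0.65 ± 0.15 SE, adjusted p = 0.0143 in edgeR). Gfm2 was lost without FL 2 (0.0540), and Gfm1 without EC-KO 1 (0.0504) or FL 2 (0.0694).

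Genes listed as ATF4 targets outside the synthetases rose more often than they fell. Of 24 ATF4 targets that are no synthetases 12 rose and 2 fell, with a median of 0.75, against 13.5% of all genes in each direction. This list, like the others here, was chosen with earlier results of these data known, so its share is only descriptive. Slc7a1, the transporter of arginine and lysine, was at 200, 179 and 223 CPM in EC-KO 1, 2 and 3, against 74.5, 67.9 and 55.8 CPM in FL 1, 2 and 3 (1.61, adjusted p = 0.000661 in edgeR), and Chac1, which degrades glutathione, rose as well (1.88, adjusted p = 0.00102). Ddit4 and Vldlr fell (-1.77 and -1.65). Atf4 itself was at 802, 965 and 687 CPM in EC-KO 1, 2 and 3, against 486, 435 and 490 CPM in FL 1, 2 and 3 (0.80 ± 0.18 SE, adjusted p = 0.0135 in edgeR), and was lost without FL 2 (0.0709) or FL 3 (0.0615). EC-KO 2 had the most Atf4 of the EC-KO libraries and the least of Aars, Cars, Yars, Tars, Nars, Sars and Rars. The kinase gene Eif2ak3 was at 336, 116 and 303 CPM in EC-KO 1, 2 and 3, against 60.4, 68.6 and 50.2 CPM in FL 1, 2 and 3. It rose by 2.07 ± 0.36 SE (adjusted p = 0.00426 in edgeR), and EC-KO 2 was its lowest EC-KO library. Whether Atf4 or Eif2ak3 bears on the synthetase levels was not tested. Members of the eIF2alpha list called higher numbered 4 of 6, and 2 without EC-KO 1, EC-KO 3 or FL 1 and 1 without FL 2 or FL 3.

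Genes of the MYC family, whose dimers with MAX bind the E-box, were called in both directions. Of 8 genes 3 rose and 3 fell (median 0.29), against 13.5% of all genes in each direction. Myc was at 226 ± 15 CPM in EC-KO and 112 ± 25.3 CPM in FL (SD, n = 3 each; 1.02, adjusted p = 0.00603 in edgeR), and Mnt, a repressor of MYC targets, rose too (1.30). Mxi1 (-1.26) and Mxd1 (-1.50), which oppose MYC, fell. The place of these factors in the synthetase results was not tested.

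**Figure D5:**
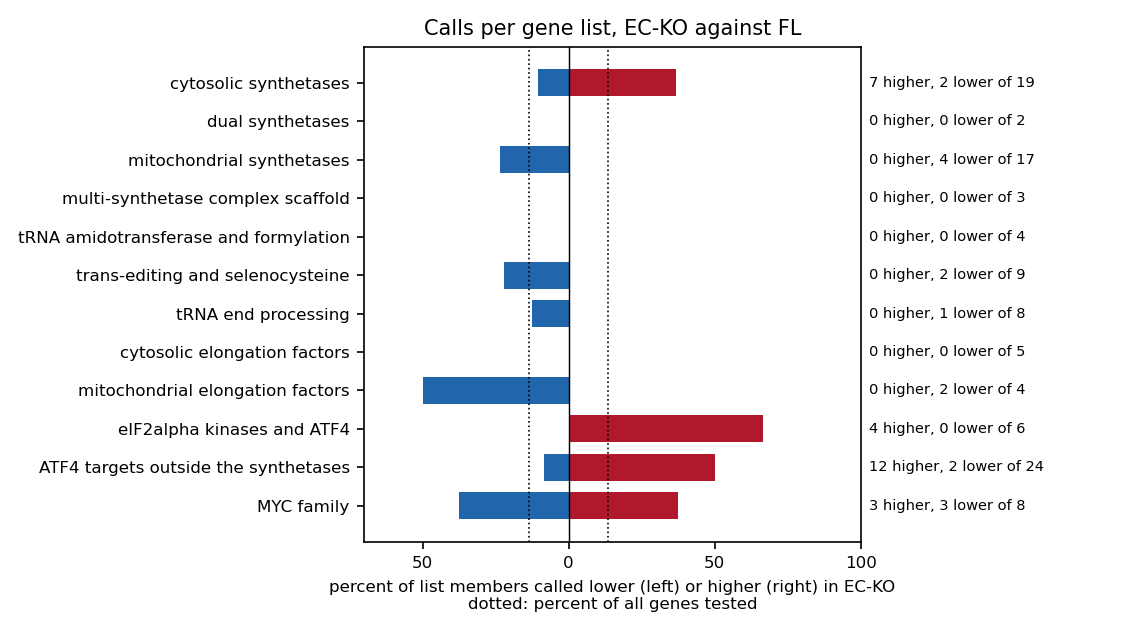
Percent of the members of each gene list called higher (right) or lower (left) in EC-KO, with the counts beside each bar and dotted lines at the 13.5% of all genes called in each direction. Rises reach 36.8% for cytosolic and 0 for mitochondrial synthetases, and number 12 of 24 in the list of ATF4 targets outside the synthetases. A link between these lists was not tested.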

How the data were processed

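The authors deposited raw counts per Ensembl gene and a summary of alignments per class, in the layout of featureCounts per the file headers. Without giving roles, the processing notes of the submitters list mm10, featureCounts 2.0.3 and STAR 2.7.10b. No source used here gives the strand setting or annotation release. The table's coordinates differ from GRCm38, so its build is unresolved, and 51948 genes took a symbol by Ensembl identifier. The 2 further per-sample columns match no sample in the labels and were not used.

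The deposited counts went unchanged into edgeR 4.0.16 (R 4.3.3): filterByExpr (18562 genes left), TMM scaling, robust quasi-likelihood F test of EC-KO against FL over 6 libraries, Benjamini-Hochberg adjustment over all genes, threshold 0.05. Each standard error is the log2 fold change divided by the root of F. The ratios per amino acid used 0.5 added counts. The common biological coefficient of variation was 25.5%. The test was also run on simulated data with few changed genes and no change of cell types. That run does not bear on scaling or error rates in these data. DESeq2 1.42.0 and limma 3.58.1 were alternatives. Depth of 26658998 to 34306962 counts limits precision for genes of few counts such as Pars2.

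Between 72.4% and 77.8% of alignments were assigned to genes; 3.60% to 3.98% were ambiguous between genes and 9.10% to 11.5% mapped to several places, and neither were counted. Of the 38 genes 16 share exon bases with other genes. The genes are named, except that the result of 1 mitochondrial gene is not reported here; it stays in all counts, medians and sums. In related lists up to 2 called genes per direction by smallest p are named, or the most abundant one. The genes, lists and promoter motifs were chosen with earlier results of these data known.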

Additional observations from a re-analysis of the deposited data

How the results depend on the processing

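Of the 13 synthetase calls 6 (Aars, Cars, Yars, Tars, Dars and Iars2) held under all 15 alternatives, and 0 of the 13 reversed. Of the 25 genes not called, 7 were called under at least 1 alternative. Leaving out each library gave 6 to 18 calls, with 4 to 9 cytosolic rises, 1 to 4 cytosolic falls, 0 to 1 mitochondrial rise (Hars2 without EC-KO 2, Lars2 without EC-KO 3) and 1 to 4 mitochondrial falls. Cytosolic falls numbered 1 with library size only and with the replicate block, and 4 with DESeq2 (Dars, Lars, Farsb and Tarsl2). One mitochondrial gene, Lars2, was called higher with library size only, upper-quartile scaling, a filter of 1 CPM in 3 libraries, DESeq2, the replicate block and the fit that was not robust (1 each, adjusted p = 0.0162 to 0.0498). With the replicate number as a block 9 synthetases were called, with 4 cytosolic rises; adjusted p was then 0.0577 for Nars, 0.0636 for Sars, 0.0902 for Rars, 0.0803 for Lars, 0.111 for Cars2, 0.0565 for Sephs2 and 0.0914 for Elac1, none of them called. Mitochondrial falls numbered 3 with library size only, upper-quartile scaling, no filter, limma-voom or the block, Cars2 being lost in each. For same-numbered libraries 1, 2 and 3 the deviations from group means correlated at 0.04, 0.12 and -0.14. With 3 libraries a group this cannot show whether the numbers stand for a pairing. The median stayed positive for cytosolic genes (0.19 to 0.38) and negative for mitochondrial genes (-0.32 to -0.15) in each alternative, while the median of all genes tested was 0.12 with library size only and 0.11 with upper-quartile scaling. Of the eIF2alpha list, called 4 of 6 in the main setting, 2 were called without a filter on low counts and 2 with the replicate block. Signs turned for 6 genes near 0 that were not called. Wars2 had a log2 fold change of 0.079 with library size only, 0.062 with upper-quartile scaling, 0.014 with the 1 CPM filter and -0.103 to 0.017 leaving out 1 library. Kars was at 0.048 with library size only and 0.034 with upper-quartile scaling. Leaving out 1 library gave -0.507 to 0.021 for Pars2, -0.530 to 0.056 for Wars, -0.075 to 0.205 for Aars2 and -0.256 to 0.023 for Vars. The causes were not tested.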
